A study of Mus musculus with 8 samples.

Results

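The genes described here are 39 interferon-stimulated genes, 4 STAT and IRF regulators among them, picked by gene symbol, and all 39 were found among the 24746 genes of the deposited count table. Their transcripts were counted in flow-sorted bone marrow B cells, 1 library from each of 8 mice, all 10 to 12 weeks old. In 4 mice, genotype miR-15a/bfl/fl Vav-Cre and below called dKO, both miR-15/16 clusters carried loxP sites on both alleles. The other 4 mice, genotype miR-15a/b+/+ Vav-Cre and below called controls, had wild-type clusters. Vav-Cre, present in both genotypes, drives Cre in blood stem cells and whatever descends from them, so it is not limited to B cells. The labels name no treatment with interferon or a virus. The cells are labelled B1a B cells, whereas the series design names pro-B cells. All 8 pan-B markers were expressed (summed level 22002 to 24171 CPM in the dKO libraries, against 23021 to 26057 CPM in the controls), all 10 B-1a markers were measured, and 8 of 10 pro-B markers had a mean under 1 CPM. Summed pro-B markers were at 10.4, 6.28, 15.4 and 36.6 CPM in dKO 1 to 4 and at 41.1, 95.9, 51.2 and 231 CPM in control 1 to 4, so that every control lay above every dKO library. Averaged over the 8 libraries, these sums rest mostly on the few pro-B markers above 1 CPM. Of the 3 pro-B markers tested for a difference, 1 lay higher and 2 lower in the dKO libraries, and 0 were called. The part of these markers in the member levels was not tested. CPM are gene counts scaled to the TMM-normalized library total. With 1 library per mouse, p-values set the difference between genotypes against the spread between mice of the same genotype.

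Interferons are secreted alarm proteins. Type I interferons bind the IFNAR receptor, whose kinases JAK1 and TYK2 phosphorylate STAT proteins, and a complex that holds STAT2 and IRF9 then binds the interferon-stimulated response element (ISRE) in promoters. Interferon-gamma, made by T cells and NK cells, acts through the IFNGR receptor and a different promoter motif, the gamma-activated site (GAS). The induced genes encode sensors of foreign nucleic acid, enzymes that block viral replication and the feedback regulators that end the response, and a low tonic level of many of them is known in resting immune cells.

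The deletion is aimed at a family of microRNAs that share a seed, the bases 2 to 8 that pair with target transcripts. The mature RefSeq sequences are shown because the seed, in capitals, defines the match searched for in the members' transcripts.
miR-15a-5p: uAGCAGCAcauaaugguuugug
miR-15b-5p: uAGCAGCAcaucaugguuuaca
miR-16-5p: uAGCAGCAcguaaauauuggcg
In GRCm38.p6, miR-15a-5p lies at chr14:61632075-61632096 on the minus strand and miR-15b-5p at chr3:69009775-69009796 on the plus strand, and miR-16-5p is encoded beside each of them. No library of the 8 had a count for any of the 4 precursor genes (the limit of 3 counts is 0.0854 to 0.111 CPM), so the genotype labels could not be checked on them.

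The seed match TGCTGCT occurred in the longest annotated 3′ UTR of 7 of the 37 interferon-stimulated genes that passed the filter on low counts (18.9%), against 24.8% of all 10407 tested genes with an annotated 3′ UTR. The median 3′ UTR length was 961 bases for the interferon-stimulated genes and 1139 bases for all tested genes. The 7 were Ifit3, Herc6, Stat2, Irf1, Oas1a, Rsad2 and Parp14. Rsad2 held 2 overlapping matches, both within the stretch shown, and only the first is in capitals. The sites of Herc6 and Rsad2, which averaged higher in the dKO libraries, and of the regulators Stat2 and Irf1 are shown with the match in capitals.
Herc6: aatgacatataTGCTGCTgtgacaatcac
Rsad2: ccagcctctgaTGCTGCTgcttcaagatg
Stat2: atgtgaagctcTGCTGCTctaggccatgc
Irf1: agggcctgctgTGCTGCTggtcttgctgg
They lie in GRCm38 at chr6:57663923-57663951 (plus strand), chr12:26444841-26444869 (minus strand), chr10:128292037-128292065 (plus strand) and chr11:53778068-53778096 (plus strand). The log2 fold change, dKO over control, was positive for Herc6 (0.56) and Rsad2 (1.03) and negative for Ifit3 (−0.38), Stat2 (−0.17), Irf1 (−0.42), Oas1a (−0.46) and Parp14 (−0.22), none of which passed the test described below. The median was −0.22 for the 7 genes with a match and −0.07 for the other 30, and over all tested genes it was 0.02 with and −0.04 without a match.

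Promoters of the interferon-stimulated genes were searched for the ISRE. The ISRE core was searched on both strands as GAAA, any 2 bases, GAAA in RefSeq promoters, running from 250 bases before to 50 bases after the start site. It was present in 14 of the 30 members with a promoter in that table (46.7%), against 3.99% of all 27025 genes searched. Windows of 30 bases are shown for 8 of them, in gene orientation with the match in capitals, because they let the genes that differ in direction below be compared at the sequence level.
Ifit1: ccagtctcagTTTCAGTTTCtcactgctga
Isg15: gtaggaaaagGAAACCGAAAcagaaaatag
Stat2: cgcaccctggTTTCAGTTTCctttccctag
Oas1a: tcgggaaatgGAAACTGAAAatctacttcc
Oas3: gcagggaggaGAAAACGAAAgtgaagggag
Eif2ak2: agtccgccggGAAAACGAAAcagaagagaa
Rsad2: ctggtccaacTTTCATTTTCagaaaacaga
Gbp2: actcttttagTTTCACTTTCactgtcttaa
In GRCm38.p6 these windows are chr19:34640794-34640823 (plus strand), chr4:156200871-156200900 (minus), chr10:128270266-128270295 (plus), chr5:120907520-120907549 (minus), chr5:120777715-120777744 (minus), chr17:78882535-78882564 (minus), chr12:26456553-26456582 (minus) and chr3:142620594-142620623 (plus). Isg15 held 3 overlapping matches, and Ifit1, Ifit3, Oas1a, Bst2, Ifitm3 and Trim30a held 2 each. The GAS letters TTCNNNGAA were present in 9 of the 30 (30.0%), Irf1 among them, against 9.55% of all genes searched. Dhx58, Mx1, Mx2, Oas2, Parp14, Parp9, Rtp4, Usp18 and Zbp1 were not searched. The median log2 fold change was −0.08 for the 14 tested members with the ISRE match and −0.07 for the 15 tested members without it. For the GAS letters it was −0.21 for the 9 tested members with and −0.04 for the 20 without them. Over all tested genes searched, the GAS medians were −0.07 with and −0.02 without. No test was run on either split.

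None of the 37 tested interferon-stimulated genes passed in the dKO libraries against the controls (edgeR quasi-likelihood test, Benjamini-Hochberg adjusted p under 0.05 over 11363 genes), and the smallest adjusted p among them was 0.25. Over all genes 10 passed (0.088%), 7 of them higher (0.0616%) and 3 lower (0.0264%). The log2 fold change was above 0 for 12 of the 37 and below 0 for 25. Its median was −0.09 for them and −0.02 over all genes tested. At an adjusted p under 0.1 edgeR still called none of the 37 and 0.66% of all genes. DESeq2 called none of them at 0.05 and 2.84% of all genes, while limma voom with quality weights called 2, Oasl2 (adjusted p = 0.043) and Gbp2 (adjusted p = 0.045), and 2.48% of all genes. At an unadjusted p under 0.05 there were 7 members, 3 higher and 4 lower, or 18.9%, beside 10.8% of all genes. The groups did not overlap for 2 members (Herc6 and, by less than the printed digits, Ifit1), or 5.41%, beside 6.96% of all genes. Mx2 and Ifi44 did not pass the filter on low counts.

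**Figure D1:**
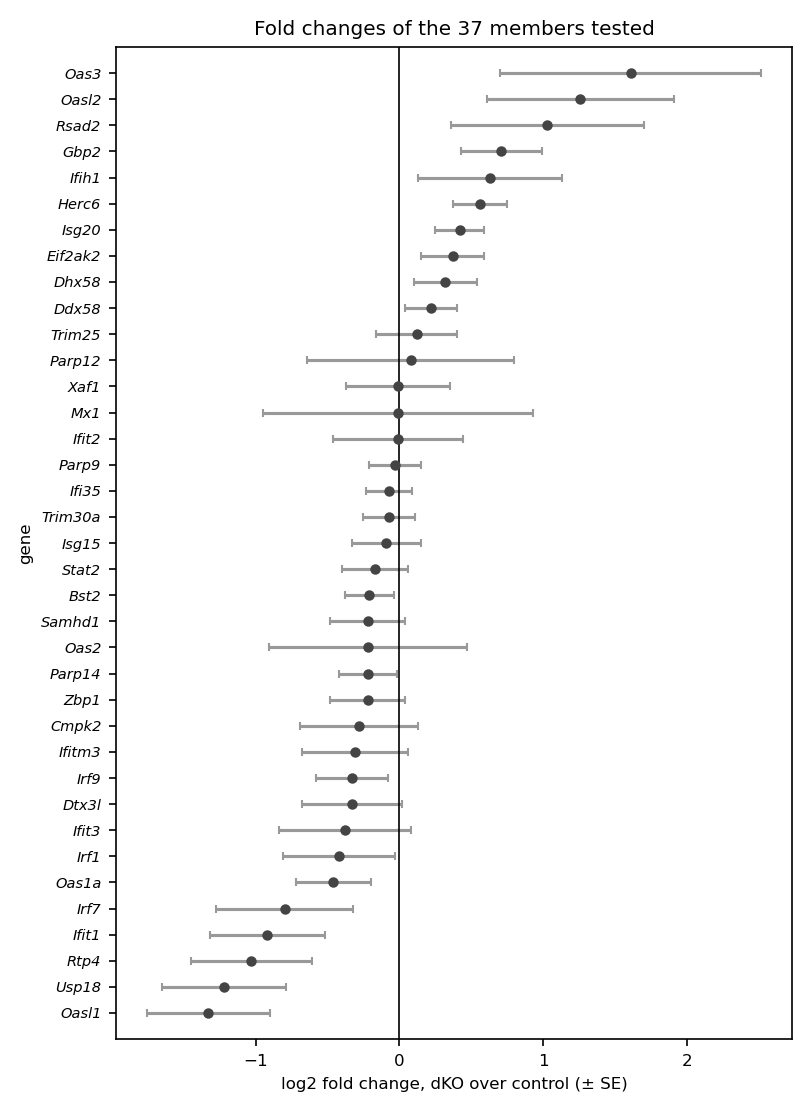
Log2 fold changes (dKO over control, x axis) of the 37 tested interferon-stimulated genes (y axis), with points for the edgeR estimate and bars for its standard error. They run from −1.33 for Oasl1 to 1.61 for Oas3, and 25 of the 37 lie below 0.

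Levels per kilobase of exon were highest for Bst2, Ifi35 and Ifitm3. Averaged over the 8 libraries, Bst2, which encodes tetherin and holds budding virions at the cell surface, stood at 217 CPM per kb. Ifi35 (144 CPM per kb) and Ifitm3 (137 CPM per kb), a barrier to viral entry at endosomal membranes, followed. Isg20, a 3′ exonuclease, stood at 31.7 CPM per kb and Isg15, the ubiquitin-like modifier, at 23.7 CPM per kb. Ifit3 stood at 3.42, Usp18 at 1.63, Irf7 at 1.38 and Ifit1 at 0.578 CPM per kb. The lowest of the 39 were Ifi44 at 0.0441, Mx2 at 0.0530, Oas3 at 0.0707 and Oas2 at 0.0881 CPM per kb. The mean reached 1 CPM for 32 of the 37 tested members and 10 CPM for 21.

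Among the regulators, the 4 STAT and IRF genes did not pass, and 3 of them stood highest in 1 control. Irf1, an early transcription factor that interferon-gamma induces, was at 79.9, 77.5, 64.9 and 58.9 CPM in dKO 1 to 4 and at 57.5, 193, 53.3 and 71.7 CPM in control 1 to 4. Control 2 was thus 3.18 times the mean of the other 3 controls, and the other 7 libraries lay close together. The log2 fold change was −0.42 ± 0.39 (SE, edgeR adjusted p = 0.78). Irf7, the amplifier of interferon-alpha production, was at 5.24, 2.53, 2.96 and 4.50 CPM in dKO 1 to 4 and at 4.81, 14.2, 2.46 and 5.10 CPM in control 1 to 4 (−0.80 ± 0.48, adjusted p = 0.61). Irf9, the DNA-binding subunit of the type I complex, averaged 33.4 ± 2.62 CPM in dKO mice against 41.9 ± 18.5 CPM in control mice (SD, n = 4 each), with 69.0 CPM in control 2 (−0.33 ± 0.25, adjusted p = 0.71). Stat2, another subunit of that complex, did not share this pattern. It averaged 14.9 ± 4.55 CPM in dKO mice against 16.8 ± 2.16 CPM in control mice (−0.17 ± 0.23, adjusted p = 0.87), and its lowest values were 8.68 CPM in dKO 4 and 13.5 CPM in control 4. Without control 2 the log2 fold changes of Irf1 and Irf9 changed sign, to 0.21 ± 0.17 (adjusted p = 0.64) and 0.02 ± 0.16 (0.96), and that of Irf7 was −0.12 ± 0.36 (0.92). Without dKO 4 that of Stat2 was 0.01 (adjusted p = 0.99).

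None of the 5 tested genes of the oligoadenylate synthetase family passed, 2 with a log2 fold change above 0 and 3 below. The family is named for the synthesis of 2-5A, which activates RNase L, an activity that Oasl1 lacks. Oasl1, in mouse a translational inhibitor of Irf7, was at 1.99, 1.37, 1.72 and 2.55 CPM in dKO 1 to 4 and at 4.88, 9.02, 2.39 and 2.90 CPM in control 1 to 4. Controls 1 and 2 were high, and dKO 4 lay just above control 3, so the groups overlapped (log2 fold change −1.33 ± 0.43, SE, unadjusted p = 0.0092, adjusted p = 0.25). Oasl2 was at 5.04, 3.82, 5.64 and 4.09 CPM in dKO 1 to 4 and at 0.364, 5.35, 1.06 and 0.997 CPM in control 1 to 4. Here 3 controls lay far below every dKO library and control 2 lay among them (1.26 ± 0.65, adjusted p = 0.54).

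Oasl2 is the member whose call turned on 1 library. Without control 2 its log2 fold change was 2.52 ± 0.41 (edgeR adjusted p = 0.042, where 0.156% of all genes were called), and without control 2 and control 4 it was 2.70 ± 0.48 (adjusted p = 0.038, 0.499% called). The ratio of Oasl2 to Oasl1 CPM was 2.53, 2.78, 3.28 and 1.60 in dKO 1 to 4 and 0.0746, 0.593, 0.441 and 0.343 in control 1 to 4. That ratio, chosen after the values were seen and so given without a test, separated the genotypes in all 8 libraries, control 2 included. Oas3 was near the floor, at 0.769, 0.743, 1.07 and 0.443 CPM in dKO 1 to 4 and at 0.00, 0.640, 0.281 and 0.0587 CPM in control 1 to 4, and its log2 fold change of 1.61 ± 0.91 (adjusted p = 0.58) rests on few reads. Oas1a averaged 19.5 ± 6.05 CPM in dKO mice against 26.9 ± 8.27 CPM in control mice (SD, n = 4 each, −0.46 ± 0.26, adjusted p = 0.57). Oas1a has close paralogues, as have Ifit3, Ifitm3, Gbp2 and Trim30a, so their values are uncertain where reads are shared. Oas2 averaged 0.362 ± 0.0962 CPM in dKO mice against 0.422 ± 0.318 CPM in control mice.

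None of the 3 genes of the ISG15 conjugation system passed. Usp18, the protease that removes ISG15 and the feedback inhibitor of IFNAR, was at 2.85, 2.97, 2.23 and 2.89 CPM in dKO 1 to 4 and at 8.05, 11.4, 3.17 and 2.79 CPM in control 1 to 4. Controls 1 and 2 were high, while controls 3 and 4 lay at the level of the dKO libraries (log2 fold change −1.22 ± 0.43, unadjusted p = 0.015, adjusted p = 0.31). Herc6, the main E3 ligase for ISG15 in mouse, was at 15.4, 17.4, 16.6 and 12.5 CPM in dKO 1 to 4 and at 7.91, 12.3, 11.6 and 10.0 CPM in control 1 to 4. All dKO libraries lay above all controls, dKO 4 by a small margin (0.56 ± 0.19, unadjusted p = 0.013, adjusted p = 0.29). Isg15 itself averaged 17.4 ± 4.05 CPM in dKO mice against 18.5 ± 5.74 CPM in control mice (SD, n = 4 each), less apart than the spread within either group. Usp18 shares 124 and Herc6 1269 exonic bases with another annotated gene in GRCm38, Usp18 on the opposite strand, and whether the counting used strand is not stated in the sources used here.

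Of the IFIT proteins, which bind viral RNA, Ifit1 lay lower in the dKO libraries, at 0.911, 1.34, 1.17 and 0.817 CPM in dKO 1 to 4 against 2.77, 2.29, 1.34 and 1.64 CPM in control 1 to 4. To the printed digits its groups met at 1.34 CPM in dKO 2 and control 3. The values of the 8 libraries came from 24 to 76 counts (log2 fold change −0.92 ± 0.40, adjusted p = 0.43). Ifit3 averaged 5.18 ± 1.96 CPM in dKO mice against 6.75 ± 4.16 CPM in control mice, and Ifit2 2.62 ± 0.805 and 2.64 ± 1.55 CPM in dKO and control libraries (SD, n = 4 each). Rtp4, an interferon-induced chaperone of G protein-coupled receptors, was at 14.4, 10.9, 11.6 and 21 CPM in dKO 1 to 4 and at 21.4, 57.5, 12.5 and 27.4 CPM in control 1 to 4. Control 2 was again the highest (−1.03 ± 0.42, adjusted p = 0.41), and without it the log2 fold change of Rtp4 was −0.49 ± 0.29 (adjusted p = 0.51).

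**Figure D2:**
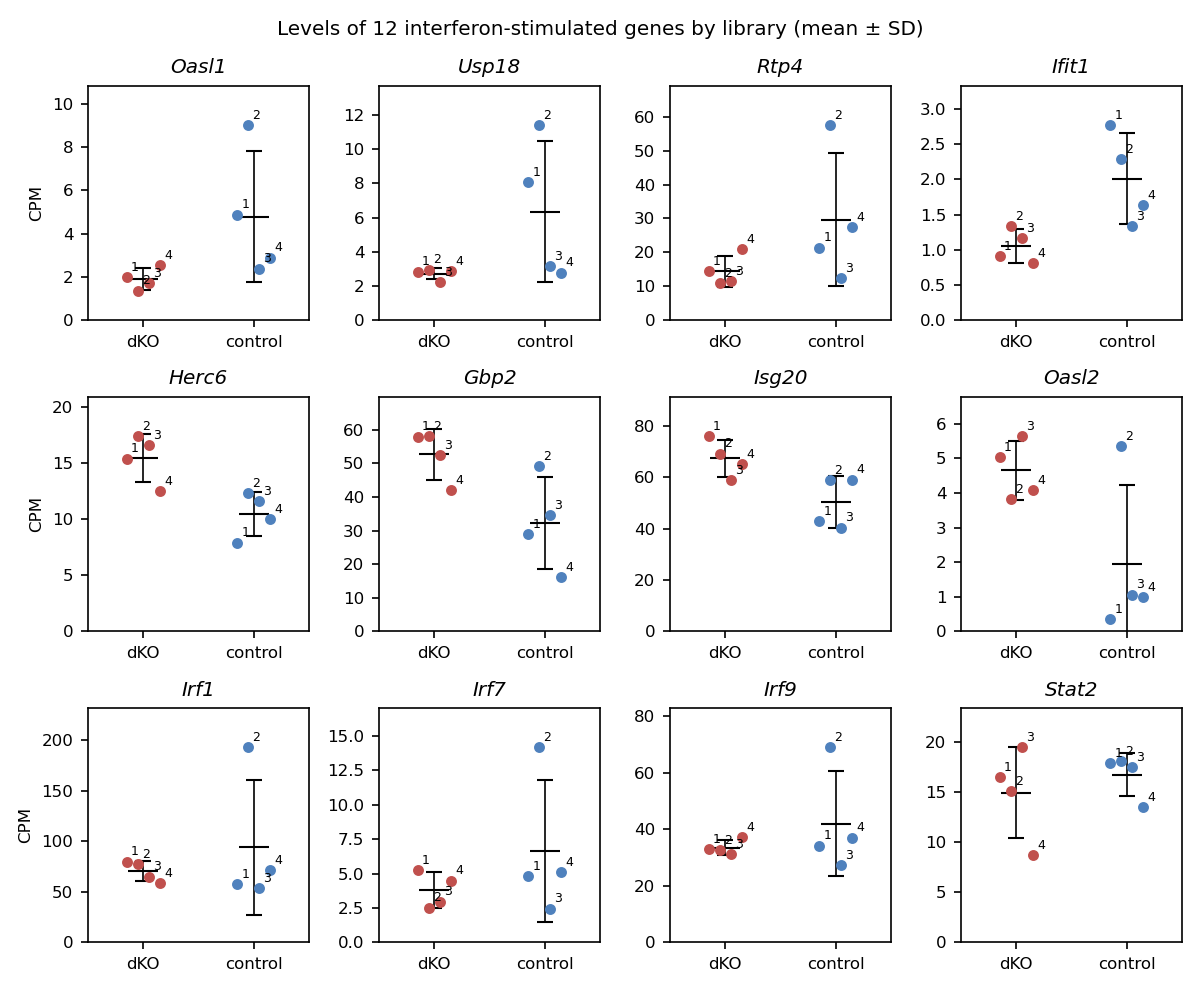
CPM (y axis, from 0) of 12 interferon-stimulated genes in the 4 dKO and 4 control libraries, with the replicate number beside each point, and the mean with 1 SD as bars (cut at 0 for Oasl2 controls). Herc6 lies higher in all dKO libraries, whereas Oasl1, Usp18, Rtp4, Irf1, Irf7 and Irf9 have their highest value in control 2.

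Gbp2 and Isg20 were the other members with an unadjusted p under 0.05 that lay higher in the dKO libraries. Gbp2, a guanylate-binding GTPase that attacks vacuoles of intracellular pathogens, was at 57.9, 58.1, 52.4 and 42.1 CPM in dKO 1 to 4 and at 29.0, 49.1, 34.5 and 16.2 CPM in control 1 to 4. The groups overlapped through dKO 4 and control 2 (log2 fold change 0.71 ± 0.28, adjusted p = 0.37). Isg20 was at 76.1, 69.3, 59.0 and 65.1 CPM in dKO 1 to 4 and at 43.1, 59.0, 40.4 and 59.1 CPM in control 1 to 4, with dKO 3 level with controls 2 and 4 (0.42 ± 0.17, adjusted p = 0.38). Rsad2, which encodes viperin, averaged 1.45 ± 0.471 CPM in dKO mice against 0.712 ± 0.772 CPM in control mice (SD, n = 4 each). Control 1 (1.86 CPM) stood at the level of the highest dKO libraries (1.03 ± 0.67, adjusted p = 0.65). Its neighbour Cmpk2, a mitochondrial nucleotide kinase, averaged 2.43 ± 0.333 CPM in dKO mice against 2.94 ± 1.89 CPM in control mice.

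None of the 5 nucleic acid sensors passed. Their log2 fold change was above 0 for 4 of 5, beside 47.7% of all genes tested, and no sensor had groups without overlap. Eif2ak2, the double-stranded RNA kinase PKR, averaged 20.3 ± 3.45 CPM in dKO mice against 15.7 ± 4.43 CPM in control mice (SD, n = 4 each, log2 fold change 0.37 ± 0.22, adjusted p = 0.60). Dhx58, the regulator LGP2, averaged 7.27 ± 1.14 CPM in dKO mice against 5.80 ± 1.11 CPM in control mice (0.32 ± 0.22, adjusted p = 0.67). Ddx58, which encodes RIG-I, averaged 25.5 ± 3.72 CPM in dKO mice against 21.9 ± 4.15 CPM in control mice, and Ifih1, which encodes MDA5, 1.2 ± 0.373 and 0.780 ± 0.377 CPM in dKO and control libraries. Zbp1, the sensor of Z-form nucleic acid that triggers necroptosis, was at 62.3 ± 13.9 CPM in dKO mice against 72.6 ± 27.4 CPM in control mice.

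None of the remaining members passed the test. The TRIM and PARP genes had log2 fold changes between −0.33 for Dtx3l and 0.12 for Trim25. Trim25, the ubiquitin ligase that activates RIG-I, averaged 57.5 ± 11.6 CPM in dKO mice against 53.0 ± 23.0 CPM in control mice, and Trim30a 70.1 ± 9.12 and 73.5 ± 16.1 CPM in dKO and control libraries. Parp14 averaged 18.2 ± 1.74 CPM in dKO mice against 21.1 ± 6.24 CPM in control mice, and Parp12 only 0.400 ± 0.293 and 0.380 ± 0.179 CPM in dKO and control libraries. Parp9 and Dtx3l, whose products act as a complex, share 458 exonic bases on opposite strands in GRCm38, and Parp9 averaged 11.4 ± 1.46 CPM in dKO mice against 11.7 ± 1.73 CPM in control mice (SD, n = 4 each). Dtx3l reached 19.2 CPM in control 2, against 5.03 to 10.2 CPM in the other controls. Samhd1, the dNTP hydrolase that starves reverse transcription, averaged 177 ± 15.1 CPM in dKO mice against 206 ± 93.7 CPM in control mice, with 338 CPM in control 2. Bst2, Ifi35, Ifitm3 and Xaf1 had log2 fold changes between −0.31 and −0.01. Bst2 averaged 181 ± 35.9 CPM in dKO mice against 209.9 ± 26.6 CPM in control mice. Ifi35 averaged 242 ± 35.5 CPM in dKO mice against 254 ± 28.8 CPM in control mice. Ifitm3 averaged 82.8 ± 28.8 CPM in dKO mice against 102 ± 53.0 CPM in control mice. Xaf1, a pro-apoptotic factor, averaged 29.6 ± 8.69 CPM in dKO mice against 29.9 ± 14 CPM in control mice. Of the antiviral Mx GTPases, whose genes are defective in many laboratory strains, Mx1 had no count in control 1 and 2.32 CPM in control 3, and Mx2 had no count in 4 of 8 libraries. Ifi44 had no count in dKO 2, dKO 3 and control 1, at most 0.0681 CPM in any dKO library, and 1.35 CPM in control 2.

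**Figure D3:**
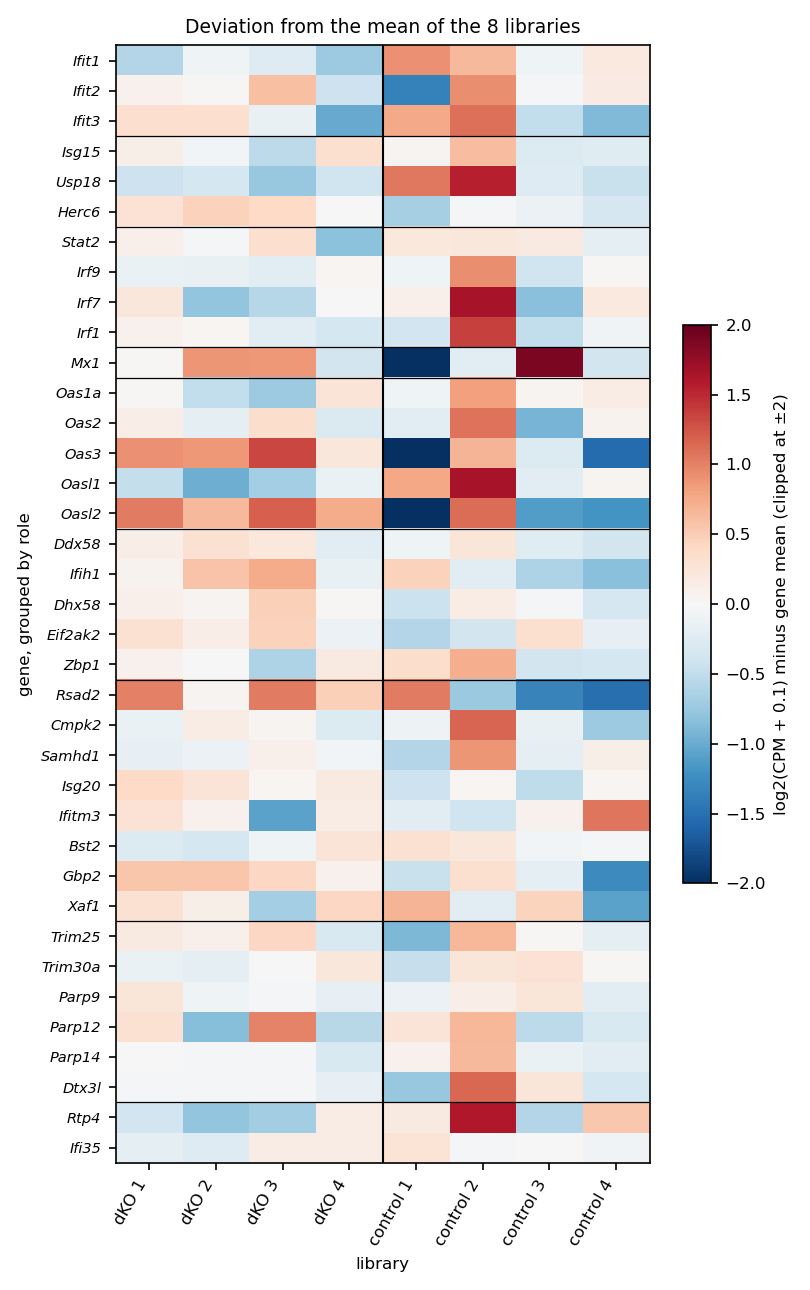
Deviation of each tested interferon-stimulated gene (rows, grouped by role) from its mean over the 8 libraries (columns), as log2(CPM + 0.1) with colours limited to ±2. The control 2 column is red for most rows, which has the highest level for 17 of the 37 rows.

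Across the libraries, the members varied more among the controls than among the dKO mice, and control 2 stood out. The median coefficient of variation was 20.1% in the dKO libraries and 45.5% in the controls, beside 18.3% in the dKO libraries and 27.0% in the controls over all genes tested. Without control 2 the controls' median was 31.5% for the members and 23.6% for all genes. With all 8 libraries, the coefficient was smaller in the dKO libraries for 32 of 37 members (86.5%), and for 71.3% of all genes. Control 2 had the highest CPM of the 8 libraries for 17 of 37 members (45.9%), against 20.7% of all genes tested, and the lowest for none. Its level was a median of 1.71 times the mean of the other controls over the members and 1.01 times over all genes. It exceeded 2 times for 14 of 37 members (37.8%) and for 6.93% of all genes. Without control 2, the log2 fold change lay above 0 for 25 of the 37 and its median was 0.13, beside 0.01 over all genes, so the direction of the median depended on this library. In that fit Oasl2 alone passed.

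**Figure D4:**
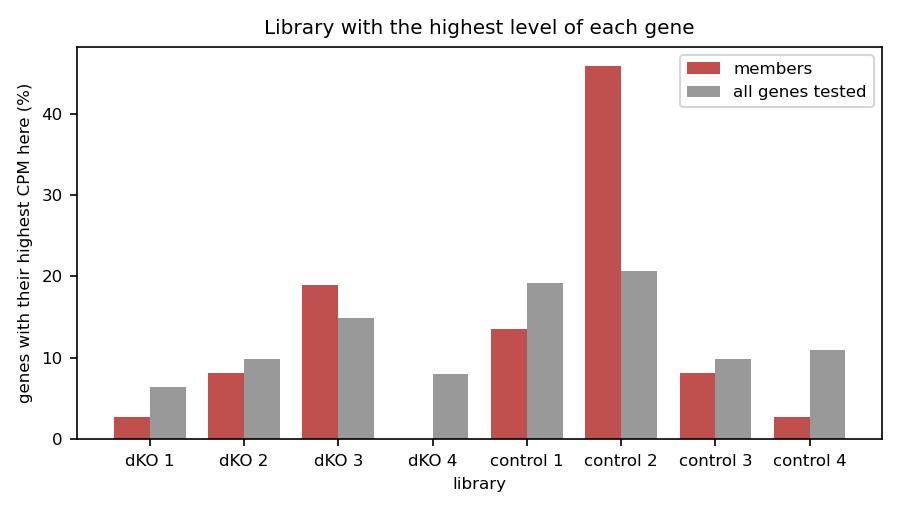
Share of genes (y axis, percent) whose highest CPM fell in each library (x axis), for the 37 tested members and for all 11363 genes tested. Control 2 holds 45.9% of the members against 20.7% of all genes.

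Genes known for their induction by interferon-gamma were mostly highest in control 2. Of 24 tested genes in a list of interferon-gamma-type GTPases and antigen processing genes, 19 (79.2%) had their highest level there and 13 exceeded 2 times the mean of the other controls. The following 4 genes were chosen after their values were seen. Iigp1, an immunity-related GTPase, was at 25.0 CPM in control 2 and at 0.00 to 1.71 CPM in the other 7 libraries. Tgtp2, of the same family, was at 124 CPM in control 2 and at 9.04 to 19.6 CPM elsewhere, and Tap1, the peptide transporter of MHC class I loading, at 78.2 CPM and at 17.4 to 29.1 CPM elsewhere. Cxcl9, a chemokine that interferon-gamma induces, had 1.75 CPM in control 2 and at most 0.114 CPM elsewhere.

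The transcripts of the interferons themselves were at or near the floor. Of 21 ligand genes, 19 had no count in any library, all those of interferon-alpha and interferon-beta among them. Ifng was at 0.285, 0.446, 0.481 and 0.0681 CPM in dKO 1 to 4 and at 0.00, 1.14, 0.00 and 0.352 CPM in control 1 to 4, again highest in control 2 (log2 fold change −0.24 ± 1.17, adjusted p = 0.97). Summed NK cell markers were at 97.2, 122, 68.1 and 186 CPM in dKO 1 to 4, against 58.1, 189, 18.1 and 122 CPM in control 1 to 4. In control 2, 6 of 9 tested NK markers and 5 of 10 T cell markers exceeded 2 times the mean of the other controls. Over all genes tested, 6.93% did. Summed T cell markers were at 193, 281, 148 and 293 CPM in dKO 1 to 4, against 191, 269.8, 101 and 221 CPM in control 1 to 4. Both sums in dKO 4 were thus near or above those in control 2. Siglech, a defining marker of the plasmacytoid dendritic cells that make type I interferon, was at most 0.943 CPM, in control 2, and 5 of the 14 markers of that cell type had a mean under 1 CPM. The 14 markers, Irf8 among them, summed to 293, 316, 285 and 298 CPM in dKO 1 to 4 and to 237, 402, 253 and 397 CPM in control 1 to 4. The 2 highest sums, in controls 2 and 4, rest on Irf8, which was at 216 and 223 CPM there. It was at 58.5 and 63.3 CPM in controls 1 and 3. Of the 9 tested markers of that cell type, 0 had their highest level in control 2. Follicular B-2 markers summed to 1233 to 1538 CPM in dKO libraries, against 1278, 2142, 1149 and 2316 CPM in control 1 to 4. Controls 2 and 4 were the highest. Monocyte and macrophage markers summed to 1475 to 3456 CPM in dKO libraries, against 4769, 2253, 2766 and 6781 CPM in control 1 to 4. Plasma cell markers summed to 3251 to 3922 CPM in dKO libraries, against 2073 to 3131 CPM in the controls. Of the 8 plasma cell markers, 5 lay higher and 3 lower in the dKO libraries. The part of these cell types in the member levels was not tested, and in sorted bulk cells more RNA per cell and more cells of a type cannot be told apart.

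Upstream of the module no gene passed. Of 11 receptor, JAK and STAT genes 4 lay above 0 and 7 below 0 on the log2 fold change, and their median was −0.19. Both groups of the receptor chain Ifngr2 were apart, at 67.3 ± 7.60 CPM in dKO mice against 85.1 ± 9.40 CPM in control mice (SD, n = 4 each, −0.34 ± 0.14, adjusted p = 0.42). So were those of Ifnar2, the signalling chain of the type I receptor, at 55.6 ± 2.73 and 67.2 ± 8.47 CPM in dKO and control libraries (−0.28 ± 0.14, adjusted p = 0.51). Ifngr1, the ligand-binding chain, averaged 86.1 ± 24.4 CPM in dKO mice against 125 ± 52.9 CPM in control mice (−0.54 ± 0.30, adjusted p = 0.57). Of 16 sensors and adaptors 8 lay higher and 8 lower. Unc93b1, which carries the endosomal Toll-like receptors to their compartment, was at 241, 246, 269 and 238 CPM in dKO 1 to 4 and at 187, 204, 180.4 and 197 CPM in control 1 to 4. Its groups did not overlap (0.37 ± 0.13, adjusted p = 0.31). Ikbke, the kinase of IRF3 and IRF7, averaged 2.60 ± 1.26 CPM in dKO mice against 1.5 ± 0.607 CPM in control mice (0.79 ± 0.46, adjusted p = 0.59). Tmem173, which encodes the adaptor STING, averaged 68.4 ± 3.63 and 85.7 ± 26.7 CPM in dKO and control libraries (−0.33 ± 0.20, adjusted p = 0.63).

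Of the other IRF genes and the negative regulators, none of 4 and none of 13 tested passed. Irf8, a B cell and myeloid factor, was high in the same controls as the follicular B-2 markers, at 54.3, 44.4, 72.8 and 101 CPM in dKO 1 to 4 and at 58.5, 216, 63.3 and 223 CPM in control 1 to 4 (log2 fold change −1.04 ± 0.50, adjusted p = 0.52). Irf4, which drives plasma cell fate, averaged 14.2 ± 2.21 CPM in dKO mice against 16.7 ± 6.64 CPM in control mice (−0.23 ± 0.25, adjusted p = 0.82), and the IRF2 partner Irf2bp2 20.8 ± 1.03 and 15.1 ± 3.05 CPM in dKO and control libraries (0.46 ± 0.17, adjusted p = 0.34). Ptpn1, a phosphatase of JAK2 and TYK2, averaged 273 ± 9.81 CPM in dKO mice against 215 ± 30.7 CPM in control mice (0.34 ± 0.15, adjusted p = 0.42). Ptpn11, the phosphatase SHP2, averaged 153 ± 24.2 CPM in dKO mice against 112 ± 19.1 CPM in control mice (0.45 ± 0.17, adjusted p = 0.36). Rnaseh2a, whose loss triggers interferon in humans and mice, averaged 77.8 ± 9.40 and 89.8 ± 4.67 CPM in dKO and control libraries (−0.21 ± 0.13, adjusted p = 0.65).

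Among 54 other tested interferon-induced genes none passed, 21 lay higher and 33 lower, and the median log2 fold change was −0.09. Mov10, an RNA helicase that restricts retroviruses and retroelements, came closest. It was at 11.6, 9.88, 10.1 and 10.2 CPM in dKO 1 to 4 and at 3.21, 6.90, 4.40 and 4.11 CPM in control 1 to 4, without overlap (1.16 ± 0.25, edgeR adjusted p = 0.093). It was called without control 2 (1.42 ± 0.22, adjusted p = 0.036), by DESeq2 (adjusted p = 0.0017) and by limma voom (adjusted p = 0.014). Ifi27, a small mitochondrial protein gene, was at 520.3 to 577 CPM in the dKO libraries, against 272 to 502 CPM in the controls (0.56 ± 0.19, adjusted p = 0.28, and 0.029 by limma voom). Ifi47, an immunity-related GTPase, averaged 71.4 ± 20 CPM in dKO mice against 128 ± 45.1 CPM in control mice (SD, n = 4 each, −0.84 ± 0.26, adjusted p = 0.24). Of the gamma-type GTPases, Irgm1 (−0.79 ± 0.32, adjusted p = 0.41) and Irgm2 (−0.76 ± 0.40, adjusted p = 0.55) lay lower and Gbp3 (0.59 ± 0.30, adjusted p = 0.52) higher, and the whole list split into 8 above and 16 below 0. B-1a markers lay higher in the dKO libraries for all 10 genes, 1 of them called. Summed, they were at 847, 963, 878 and 880 CPM in dKO 1 to 4. In control 1 to 4 the sums were 657, 308, 651 and 385 CPM, lowest in control 2. The part of B-1a markers in the member levels was not tested.

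Within genotypes the members did not form 1 tight unit. With genotype means removed, 23 of 37 members had a Pearson r above 0.5 with the mean of the other members over the 8 libraries, and 4 had an r below 0. Parp14 (0.94), Cmpk2 (0.93) and Irf1 (0.91) followed the others most closely, and Ifitm3 (−0.54) least. The non-members most like the module on this measure were Sf3b3 and Kif21b (0.97 each), and Cnot6, Zcchc2, Erdr1, Nod1, Ints1 and Cep135 (0.96 each). All of these except Erdr1 had their highest level in control 2. These correlations describe 8 libraries that share control 2 and carry no test.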

How the data were processed

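The deposited table holds the authors' raw counts of reads, 1 row per gene and 1 column per library. Per the submitters' processing notes these came from Trimmomatic, STAR and featureCounts on GRCm39. Tool versions, gene annotation and strandedness were not given in the sources used here. Per the labels' protocols, RNA was amplified by SMART-seq. The 3 unnamed columns beside the libraries were not used. Libraries held 25565090 to 34954230 counts, which sets the precision, and 72.7% to 77.3% of counts below 20 were even, as when both mates of a pair are counted. Replicates are separate mice per the series text. No pair within a group agreed within sampling noise (chi-square per degree of freedom 31.3 to 321.3).

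After a test on simulated data, edgeR 4.0.16 in R 4.3.3 filtered genes (filterByExpr), applied TMM and fitted genotype alone by its robust quasi-likelihood method. Standard errors are log2 fold change over the root of F. CPM use TMM-scaled totals, and per-kilobase levels use exon lengths of GENCODE M21 (GRCm38). The counting floor is 3 counts and covers counting error only. It takes counts as independent, which does not hold if both mates of a pair were counted. Promoters and microRNAs are RefSeq's (GRCm38.p6), and 3′ UTR sites come from GENCODE M21 transcripts. These differ from the authors' build, so no coordinate was converted.

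The members and lists were chosen with earlier results of these data known. Fold changes are given for the 14 members with the smallest p, the 4 regulators, and up to 3 genes per list. Others were chosen after their values were seen. The gene symbols are those in the table. No row for 4 induced genes (Ifi206, Mnda, Pyhin1, Rnf213) or for Ighd was used here, and 1 withheld item is not reported here. Other settings tried were DESeq2 1.42.0, limma voom with quality weights (limma 3.58.1), scaling by RLE or upper quartile, 2 other filters, halved counts, a sex term (Y-linked genes were expressed in 3 of 8 libraries), a replicate block, and libraries left out.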

Additional observations from a re-analysis of the deposited data

Results flagged for a closer look

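Within groups of 4 libraries, 8 of 74 member groups held a library whose gap to its nearest neighbour was past Dixon's 95% limit, and chance flags about 1 in 20 groups. In control 2 these were Irf1 at 193 CPM (others 53.3 to 71.7 CPM) and Oasl2 at 5.35 CPM (others 0.364 to 1.06 CPM). Rsad2 stood at 1.86 CPM in control 1 (others 0.235 to 0.471 CPM), and Stat2 at 13.5 CPM in control 4 (others 17.5 to 18.1 CPM). In dKO 3, Dhx58 stood high at 8.97 CPM (others 6.54 to 6.92 CPM) and Usp18 low at 2.23 CPM (others 2.85 to 2.97 CPM). In dKO 4, Parp14 stood low at 15.6 CPM (others 19 to 19.2 CPM) and Dtx3l at 7.63 CPM (others 8.34 to 8.45 CPM).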

How the results depend on the processing

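The number of genes called, 10 in all, was 40 without a filter, 59 without control 2 and control 4, 322 with DESeq2, 282 with limma voom and 75 at an adjusted p under 0.1, and 4 to 98 with 1 library left out (98 without control 1, 30 without control 3, 18 without control 2, 4 without dKO 2, 3 or 4). Of the interferon-stimulated genes 0 were called, against 1 (Oasl2) without control 2 and control 4, 2 (Oasl2 at 0.043 and Gbp2 at 0.045) with limma voom, and 0 to 1 with 1 library left out (Oasl2 without control 2). DESeq2 called none of them while calling 2.84% of all genes, and limma voom called 2.48%. The members' median log2 fold change ran from −0.23 to 0.13 with 1 library left out and from −0.16 to 0.10 otherwise. The replicate block gave 9 called genes, no called member and a median of −0.07. Correlations of deviations were −0.071 to 0.149 for same-numbered libraries and −0.177 to 0.175 for the other pairs. With 4 libraries per group, these values cannot show whether the numbers pair the mice.

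Without control 2 and control 4, signs turned for Irf7 (0.07), Irf9 (0.12), Irf1 (0.35), Ifngr1 (0.12), Tmem173 (0.12), Irf8 (0.17), Irf4 (0.14) and Ifng (6.25, fitted against controls without a count and no bound). Ifng also turned with the replicate block (0.66), the sex term (0.45) and limma voom (1.21), and Ifit3 with limma voom (0.42). With 1 library left out, the ranges that cross 0 were Stat2 −0.32 to 0.01, Irf9 −0.48 to 0.02, Irf1 −0.61 to 0.21, Irf4 −0.38 to 0.08, Ifng −0.64 to 1.34, Ifit3 −0.64 to 0.01 and Parp14 −0.32 to 0.01. The causes were not tested. Genes under about 1 CPM are limited by depth.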
